A study of Mus musculus with 2 samples.

Results

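The genes described here encode 10 heat shock proteins, chosen by name as Hspa1a, Hspa1b, Hspa8, Hsph1, Hspb1, Dnajb1, Hsp90aa1, Hsp90ab1, Hspd1 and Hspe1. Each matched 1 of the 36808 gene rows of the deposited table, and 9 of the 10 reached an FPKM (a fragment count set relative to transcript length and to library size) of 1 in either library. The RNA came from C57Bl6 mouse hepatocytes, the parenchymal cells of the liver, in primary culture. One culture was treated with GW3965 at 1 µM, a compound that activates the liver X receptors (LXR), and the other with the solvent DMSO. Each group had 1 library, so the differences below lack replicates, and no p-value or SD was computed. All cells were kept in William E medium with FBS, insulin and the glucocorticoid dexamethasone. The number and age of the mice, any pooling and the length of treatment are not stated in the labels. The table's second library is named GL and was taken to be GW3965, the single other sample of the labels, and this reading is not certain.

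Heat shock proteins are molecular chaperones that keep other proteins folded, refold damaged ones or pass them on for degradation. Some are made all the time, while others are switched on by heat or by misfolded protein through the transcription factor HSF1, which binds repeats of the letters GAA and TTC called heat shock elements. HSP70 proteins work in cycles of ATP binding that DNAJ proteins start and nucleotide exchange factors close. HSP90 proteins finish the folding of kinases and of steroid hormone receptors such as the glucocorticoid receptor. HSP60 and HSP10 form a folding chamber in mitochondria.

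The libraries were deep, at about 78500000 fragments for GW3965 and 63200000 for DMSO, as estimated from the steps between low FPKM values. Abca1, the cholesterol exporter and a direct LXR target, had 81.1 FPKM in GW3965 and 14.6 FPKM in DMSO. All 7 LXR targets kept as a check of the ligand were at least 1.5-fold higher in GW3965. Over all genes with 1 FPKM or more in either library, 1.02% were. The 7 were chosen with earlier results of these data known, so their count is a description and not an independent check. The authors' deposited table called 4 of these 7 and did not call Lpcat3, Fasn and Srebf1, beside 0.285% called of all genes the authors tested. Of 12 hepatocyte markers, Alb and Trf carried the table's mark for too many fragments. The other 10 had usable values, and all of these were at or above an FPKM of 1 in either library. Their summed levels were 3860 FPKM in GW3965 and 4379 FPKM in DMSO, of which Fgb alone held 2000 and 2458 FPKM. Of these 10 markers, 5 had a log2 ratio above 0 and 5 below (median -0.05). Of the markers of other cells, 7 of 9 for macrophages, 7 of 7 for endothelium, 6 of 7 for stellate cells and fibroblasts, 3 of 5 for cholangiocytes and 1 of 7 for lymphoid cells and granulocytes were at the minimum. Summed levels in GW3965 and DMSO were 220 and 219 FPKM for the macrophage markers, 152 and 128 FPKM for the endothelial markers, 86.4 and 81.3 FPKM for the stellate cell markers, 3394 and 4150 FPKM for the cholangiocyte markers, nearly all of it Spp1, and 1.48 and 1.65 FPKM for the lymphoid markers. At the minimum, 5 of 7 macrophage markers had a log2 ratio below 0 (median -0.14), 6 of 7 endothelial markers lay above 0 (median 0.27) with Clec4g 1.5-fold lower at -0.66, and 6 of 6 stellate cell markers lay above 0 (median 0.18). Over all genes at the minimum, 52.9% lay above 0 and 47.1% below. The part of other cell types in the results below was not tested. In a bulk library, fewer cells of a type and less RNA per cell cannot be told apart.

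None of the 9 heat shock genes at the minimum FPKM was 1.5-fold higher or lower in GW3965. Over all 11796 genes at that minimum, 2.35% passed 1.5-fold in either direction, so a count of 0 among 9 lies close to what the table shows for any genes. The measure is the log2 ratio of GW3965 to DMSO after 1 is added to each FPKM, on which 1.5-fold is 0.58. The 9 ratios ran between -0.24 for Hspa1b and 0.19 for Hsph1, with a median of 0.12, beside a median of 0.01 over all genes. Of the 9, 6 lay above 0 and 3 below, while 52.9% of all genes lay above 0. The median size of a ratio, regardless of sign, was 0.15 for the 9 genes and 0.10 for all genes.

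**Figure D1:**
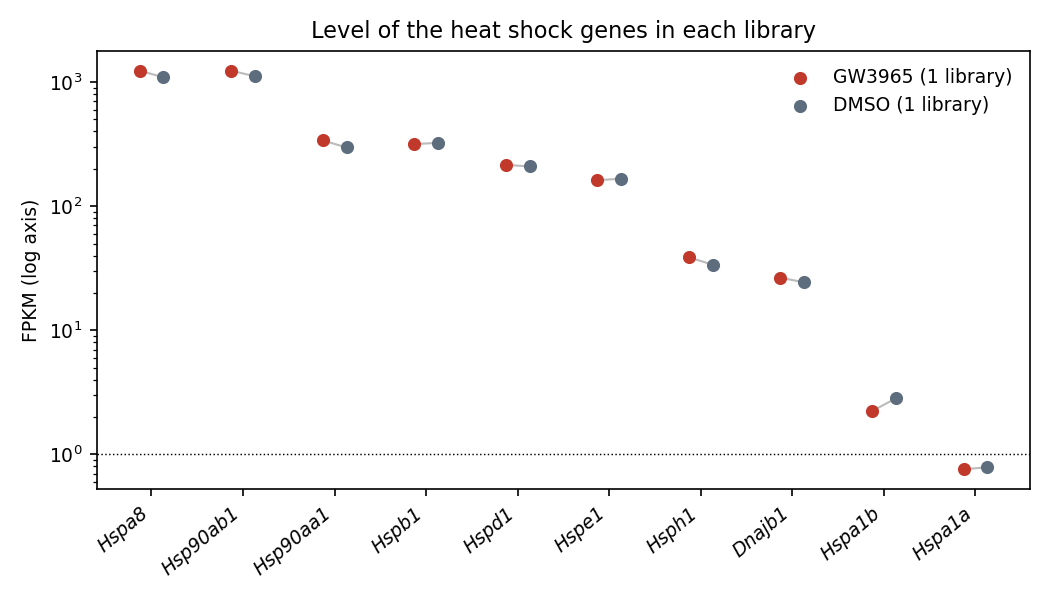
FPKM on a log axis of the 10 heat shock genes in the GW3965 library (red, left) and the DMSO library (grey, right), 1 library each, with a dotted line at an FPKM of 1. The genes span from 1235 FPKM for Hspa8 to below 1 FPKM for Hspa1a, and the 2 libraries nearly coincide for each gene.

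Hspa8 encodes HSC70, the constitutive HSP70 of the cytosol (ENSMUSG00000015656, chromosome 9, 40609067 to 40613283, mm9). It had 1235 FPKM in GW3965 and 1093 FPKM in DMSO, a log2 ratio of 0.18. By level it ranked 55 among the 11796 genes in GW3965 and 74 in DMSO. The FPKM of Hspa8 in GW3965 was therefore 12.9% above that in DMSO, with a 95% counting interval of 0.16 to 0.19 on the log2 scale without a pseudocount. Such intervals rest on fragment numbers estimated from FPKM and cover counting error only, not a difference between cultures.

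The stress-inducible HSP70 genes Hspa1a and Hspa1b stood at the other end of the scale. Hspa1b (ENSMUSG00000090877, chromosome 17, 35093943 to 35096181, mm9) had 2.24 FPKM in GW3965 and 2.82 FPKM in DMSO, a log2 ratio of -0.24. Its FPKM was lower by 20.8% in GW3965 (percent difference -20.8), the largest ratio in size of the 9. Hspa1a (ENSMUSG00000091971, chromosome 17, 35106144 to 35109069, mm9) had 0.758 FPKM in GW3965 and 0.788 FPKM in DMSO, under the minimum, with a log2 ratio of -0.02. These levels stood for about 464 and 472 fragments of Hspa1b and about 167 and 140 fragments of Hspa1a in GW3965 and DMSO, before scaling to library size. The counting interval was -0.53 to -0.15 for Hspa1b and -0.39 to 0.28 for Hspa1a. The transcript lengths used, 2803 bases for Hspa1b and 2967 bases for Hspa1a, exceed the loci given above. The fragment numbers may therefore be too high and these intervals too narrow, more so for Hspa1b. Per length of transcript, Hspa8 was 552 times as abundant as Hspa1b in GW3965 and 387 times in DMSO.

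The split between these neighbours is uncertain. Of the 25-base words of Hspa1a transcripts in GENCODE, 65.5% also occur in Hspa1b, and 69.6% of those of Hspa1b occur in Hspa1a, so reads can belong to either gene, and how the authors placed such reads is not stated in the labels. Summed over the pair, the level was 2.99 FPKM in GW3965 and 3.61 FPKM in DMSO. The pair made up 0.0839% of the summed FPKM of the 10 genes in GW3965 and 0.111% in DMSO.

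The stretches before the starts of Hspa1a and Hspa1b are shown because the likeness extends beyond the transcripts. Both are from RefSeq (GRCm38.p6), run from base -250 to base -1 before the start, 5′ to 3′, and carry in capitals a match to a pair of heat shock element units (GAANNTTC or TTCNNGAA). The Hspa1a run lies at chr17:34972157-34972406, minus strand, and the Hspa1b run at chr17:34959239-34959488, minus strand.
Hspa1a: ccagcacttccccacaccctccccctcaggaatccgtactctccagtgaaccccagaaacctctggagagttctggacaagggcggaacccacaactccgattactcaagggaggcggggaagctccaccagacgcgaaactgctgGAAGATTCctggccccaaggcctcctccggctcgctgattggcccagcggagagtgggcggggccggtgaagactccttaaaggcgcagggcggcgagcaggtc
Hspa1b: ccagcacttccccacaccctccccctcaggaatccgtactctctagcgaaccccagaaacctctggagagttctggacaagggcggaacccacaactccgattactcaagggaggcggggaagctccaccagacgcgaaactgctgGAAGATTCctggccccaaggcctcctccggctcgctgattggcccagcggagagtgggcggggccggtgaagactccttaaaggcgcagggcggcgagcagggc
The runs were identical at 247 of 250 bases (98.8%). Counted from 1 at the 5′ end of the printed run, with the Hspa1a base first, the differences were C44T, T47C and T249G. The capitals, GAAGATTC, stand at bases -104 to -97 in both genes.

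The partners of HSP70 differed by little. Dnajb1 encodes HSP40, a DNAJ protein that hands substrates to HSP70 (ENSMUSG00000005483, chromosome 8, 86132074 to 86135801, mm9). It had 26.5 FPKM in GW3965 and 24.3 FPKM in DMSO, a log2 ratio of 0.12 with a counting interval of 0.07 to 0.18 without the pseudocount. Hsph1 encodes HSP105, a nucleotide exchange factor of the HSP110 group (ENSMUSG00000029657, chromosome 5, 150416862 to 150438951, mm9). It had 38.7 FPKM in GW3965 and 33.8 FPKM in DMSO, a log2 ratio of 0.19, the highest of the 9. Hspa8, Dnajb1 and Hsph1 kept nearly the same balance: Hspa8 was 46.5 times the FPKM of Dnajb1 in GW3965 and 45.0 times in DMSO, and 31.9 times that of Hsph1 in GW3965 and 32.4 times in DMSO.

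Both cytosolic HSP90 genes were slightly higher in GW3965. Hsp90ab1, which encodes the constitutive HSP90β (ENSMUSG00000023944, chromosome 17, 45704724 to 45710220, mm9), had 1234 FPKM in GW3965 and 1114 FPKM in DMSO, a log2 ratio of 0.15. Hsp90aa1, which encodes the more inducible HSP90α (ENSMUSG00000021270, chromosome 12, 111928815 to 111940938, mm9), had 339 FPKM in GW3965 and 297 FPKM in DMSO, a log2 ratio of 0.19. The β form thus exceeded the α form 3.64 times in GW3965 and 3.75 times in DMSO. Hsp90ab1 ranked 57 in GW3965 and 72 in DMSO. Together Hspa8 and Hsp90ab1 held 69.2% of the summed FPKM of the 10 genes in GW3965 and 67.6% in DMSO, and the 10 genes held 0.666% of the FPKM of all usable genes in GW3965 and 0.608% in DMSO.

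The mitochondrial pair lay near a ratio of 0. Hspd1 encodes HSP60 (ENSMUSG00000025980), and Hspe1 encodes its lid HSP10 (ENSMUSG00000073676). The table gives both the same locus, chromosome 1, 55134679 to 55148151 (mm9). Hspd1 had 215 FPKM in GW3965 and 209 FPKM in DMSO, a log2 ratio of 0.04. Hspe1 had 162 FPKM in GW3965 and 166 FPKM in DMSO, a log2 ratio of -0.04, and its counting interval of -0.09 to 0.01 included 0. Hspd1 thus stood at 1.33 times the FPKM of Hspe1 in GW3965 and 1.26 times in DMSO. The genes point away from each other, and 6.07% of the 25-base words of Hspe1 occur in Hspd1, so fragments there can belong to either.

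The small heat shock protein gene Hspb1, which encodes HSP25, an ATP-independent holder of unfolded protein (ENSMUSG00000004951, chromosome 5, 136363789 to 136365433, mm9), was abundant. It had 316 FPKM in GW3965 and 324 FPKM in DMSO, a log2 ratio of -0.04. It ranked 239 among all genes in GW3965 and 235 in DMSO.

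Short stretches with heat shock element letters before 3 further starts are shown, since such elements are the sites HSF1 is known for. All are from RefSeq (GRCm38.p6), 5′ to 3′, with matches to GAANNTTC or TTCNNGAA in capitals. The Hspe1 stretch (chr1:55088053-55088082, plus strand) lies between the Hspe1 start and a start of Hspd1, so windows of both genes hold it. The Hsph1 stretch is chr5:149636351-149636380, minus strand, and the Hspb1 stretch is chr5:135887779-135887838, plus strand.
Hspe1: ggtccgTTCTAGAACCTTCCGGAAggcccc
Hsph1: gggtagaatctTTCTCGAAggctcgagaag
Hspb1: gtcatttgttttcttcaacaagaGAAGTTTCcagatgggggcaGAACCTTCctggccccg
In the Hspe1 stretch 3 overlapping matches join into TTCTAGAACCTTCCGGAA. RefSeq windows of 300 bases, from 250 before to 50 after a start, were on hand for 7 of the 10 genes. The letters GAANNTTC or TTCNNGAA, each its own reverse complement, occurred in a window of 6 of these 7 genes, Dnajb1 being without, and in 17% of 27025 genes with windows. A run of 3 units (GAANNTTCNNGAA or TTCNNGAANNTTC) occurred in windows of 3 of the 7, Hspd1, Hspe1 and Hsph1, and in 0.662% of all genes. Hspd1 and Hspe1 share 1 such run, the one printed, and the run of Hsph1 lies after its start, outside the stretch printed. A match of letters is a description of the window and says nothing of whether HSF1 binds there.

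**Figure D2:**
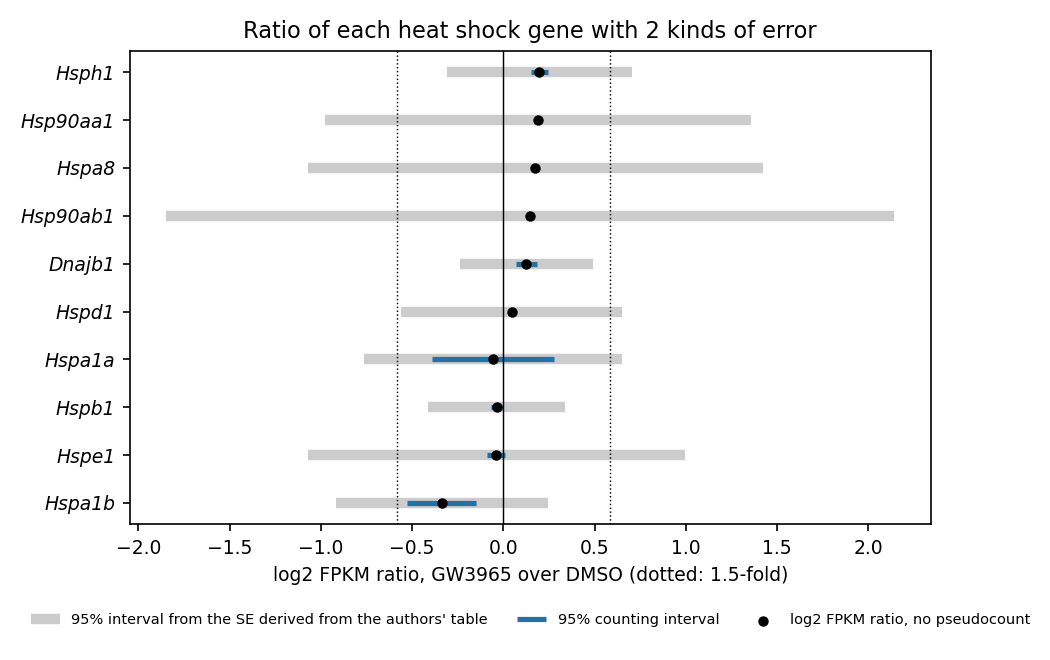
Log2 FPKM ratio of GW3965 over DMSO without a pseudocount for the 10 heat shock genes (black points), with the 95% counting interval (blue) and the 95% interval from the standard error derived from the authors' deposited table (grey). Blue bars narrower than a point are hidden by it, and every grey bar crosses 0.

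The authors' own test sets the reads of the 2 libraries against each other and does not test the treatment. It called 0 of the 10 genes in the authors' deposited table, beside 0.285% of the 15090 genes the authors tested, and q was 0.999957 for each of the 10. The lowest p in the authors' deposited table was 0.254, for Hspa1b. The standard error of a log2 fold, derived from the fold and test statistic of the authors' deposited table, had a median of 0.31 over the 9 genes at the minimum, against 0.28 over 11689 tested genes at the minimum. It was 1.02 for Hsp90ab1, 0.64 for Hspa8 and 0.60 for Hsp90aa1, against 0.19 for Dnajb1 and 0.19 for Hspb1. The derived interval of Hsp90ab1 accordingly ran from -1.85 to 2.14. For 2 of the 10 genes, Hspb1 with -0.41 to 0.34 and Dnajb1 with -0.24 to 0.49, the interval lay wholly inside 1.5-fold. For 5 of the 10 it passed 1.5-fold on both sides, so for these 5 differences of that size are not bounded by the authors' table. Neither count was made over all tested genes, so whether the 10 genes stand apart in this is not known. The counting intervals, which cover counting error only, lay above 0 for 6 of the 10 and below 0 for 2, Hspa1b and Hspb1. That count was not made over all genes either, and at this depth small ratios can have intervals off 0. Ahsa1, an HSP90 co-chaperone outside the 10, had a log2 ratio of 0.04 and an interval of 0.003 to 0.08.

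At a lower threshold of 1.1-fold, chosen after the values were seen, 4 of the 9 genes were higher in GW3965 and 1 was lower. The higher ones were Hspa8, Hsph1, Hsp90aa1 and Hsp90ab1, and the lower one was Hspa1b. Over all genes at the minimum, 18.3% were at least 1.1-fold higher, 18.3% at least 1.1-fold lower and 36.5% either.

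**Figure D3:**
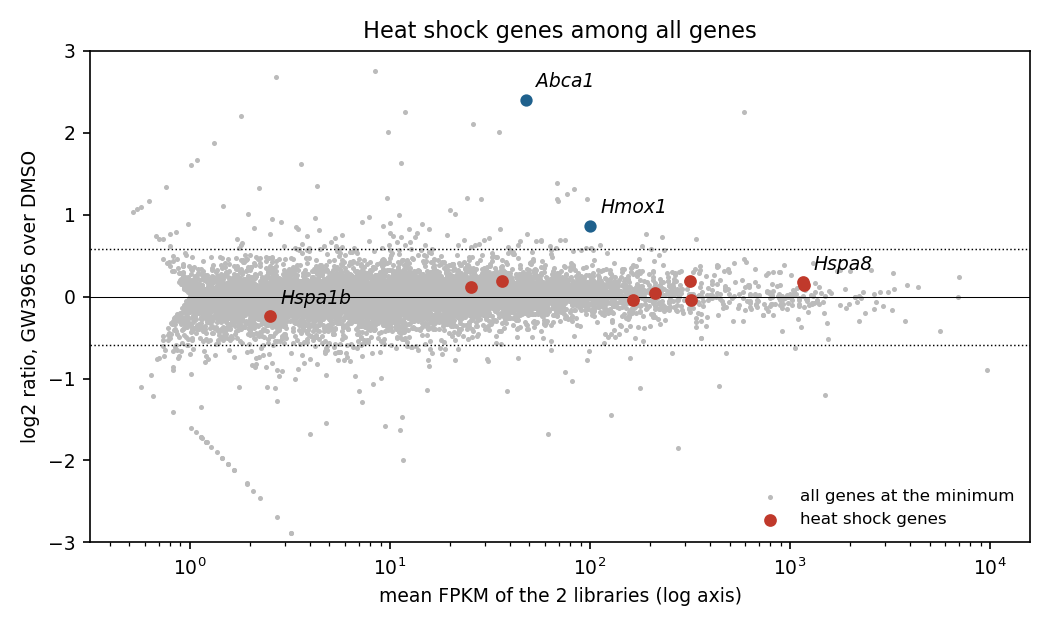
Log2 ratio of GW3965 over DMSO, with 1 added to each FPKM, against the mean FPKM of both libraries (log axis) for all genes at the minimum (grey), the heat shock genes (red), and Abca1 and Hmox1 (blue); dotted lines mark 1.5-fold, and 10 genes lie outside the plotted range of -3 to 3. The red points lie inside the grey band at every level, with Abca1 at 2.40 far above it.

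The heat shock factors and regulators at the minimum had RNA levels close to equal in both libraries. The activity of their proteins was not measured. Hsf1, the main activator, had 21.8 FPKM in GW3965 and 21.5 FPKM in DMSO, a log2 ratio of 0.02. Hsf2, a related factor, had 8.35 FPKM in GW3965 and 8.14 FPKM in DMSO (0.03). Hsbp1, a small protein that binds HSF1, had 73.5 FPKM in GW3965 and 77.5 FPKM in DMSO (-0.08), and Hsf4 stood at -0.06. The other 4 genes on this list of 8 were under the minimum.

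Among 28 genes reported to be heat-inducible, 9 of them genes of the 10 above, 27 were at the minimum, 1 was 1.5-fold higher and 0 were 1.5-fold lower, with a median of 0.05. Over all genes 1.02% were 1.5-fold higher and 1.33% were 1.5-fold lower. The 1 on the list was Hmox1, heme oxygenase 1, an oxidative stress gene. It had 130.5 FPKM in GW3965 and 71.2 FPKM in DMSO, a log2 ratio of 0.86, and q = 0.00752 with a call in the authors' deposited table. Next in size were Zfand2a, a proteasome-associated stress gene, at 20.6 FPKM in GW3965 and 15.4 FPKM in DMSO (0.40), and Ier5, an immediate early gene, at 20.9 FPKM in GW3965 and 27.8 FPKM in DMSO (-0.39). Bag3, an HSP70 co-chaperone that HSF1 induces, had 24.2 FPKM in GW3965 and 23.0 FPKM in DMSO (0.07).

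**Figure D4:**
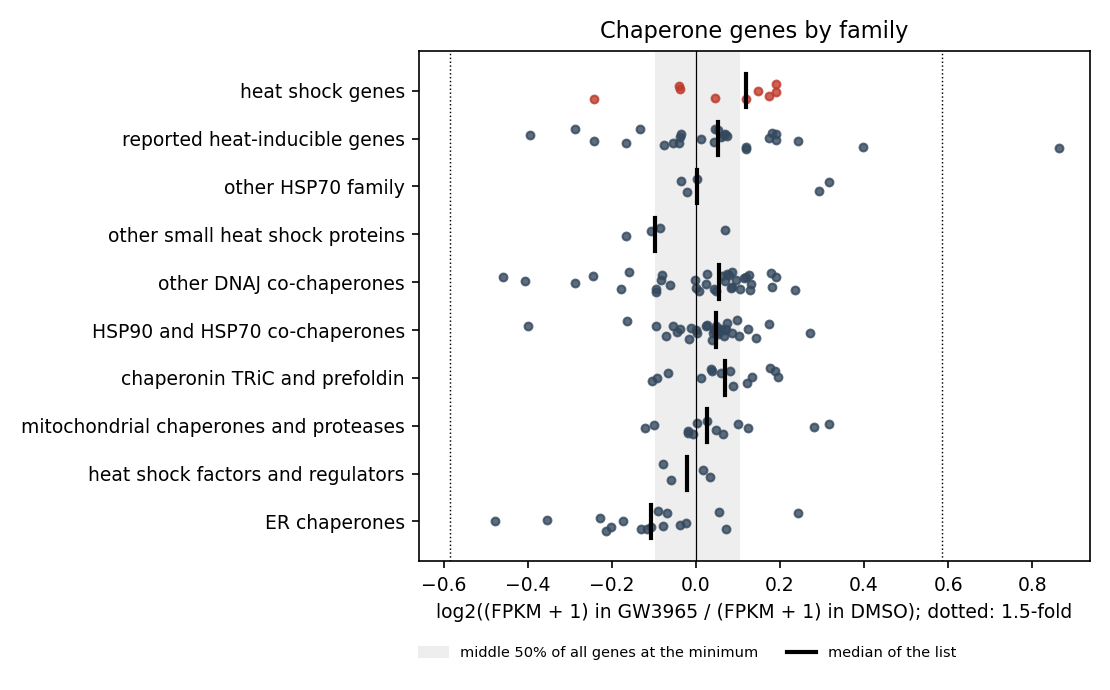
Log2 ratio of GW3965 over DMSO, with 1 added to each FPKM, of each gene at the minimum FPKM (points) in the heat shock genes (red) and in 9 lists of related genes (dark), with each list's median (black bar), the middle 50% of all genes (grey band, -0.09 to 0.10) and 1.5-fold (dotted). One point, Hmox1 at 0.86, lies outside the dotted lines; some genes are on more than 1 list.

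Over 9 further lists of the wider chaperone system, 130 genes other than the 10 were at the minimum, and 1, Hmox1, passed 1.5-fold. Over all genes 2.35% passed it. Of the remaining HSP70 family, 5 of 10 entries were at the minimum, with a median of 0.00. The mitochondrial HSP70 gene Hspa9 had 318 FPKM in GW3965 and 255 FPKM in DMSO (0.32), and Hspa4, an HSP110-group exchange factor like Hsph1, had 140 FPKM in GW3965 and 114 FPKM in DMSO (0.29).

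Of 40 further DNAJ genes 36 were at the minimum, 24 above 0 and 12 below, with a median of 0.06. The largest ratios in size were -0.46 for Dnajc9, a histone-binding DNAJ protein, -0.41 for Dnajc12, -0.29 for Dnajb4 and -0.24 for Dnajc24. All 33 co-chaperones of HSP90 and HSP70 were at the minimum, 24 above 0 and 9 below, with a median of 0.05. Over all genes at the minimum 52.9% lay above 0, with a median of 0.01, and neither list was tested against that. Stip1, the adaptor that links HSP70 to HSP90, had 125 FPKM in GW3965 and 121 FPKM in DMSO (0.05), and St13, an HSP70-interacting protein, had 246 FPKM in GW3965 and 218 FPKM in DMSO (0.17). Fkbp5, an HSP90 partner and glucocorticoid target, stood at 13.7 FPKM in GW3965 and 13.4 FPKM in DMSO (0.02). The largest ratio in size on that list was -0.40 for Unc45b, a myosin chaperone near the minimum with 1.05 FPKM in GW3965 and 1.70 FPKM in DMSO.

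The cytosolic chaperonin TRiC and prefoldin, which fold actin and tubulin, had 14 of 15 genes at the minimum. Of these 14, 11 lay above 0, beside 52.9% of all genes. The median of the list was 0.07, with the TRiC subunit Cct5 highest at 0.20. Mitochondrial chaperones and proteases had a median of 0.03 over 13 genes, where Lonp1, a matrix protease, followed Hspa9 at 0.28. The other small heat shock proteins had 4 of 10 genes at the minimum and a median of -0.10. Hspb8, the partner of BAG3, was their most abundant at 55.4 FPKM in GW3965 and 52.8 FPKM in DMSO (0.07), and Cryab, αB-crystallin, had 9.83 FPKM in GW3965 and 11.2 FPKM in DMSO (-0.17).

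Chaperones of the endoplasmic reticulum, which answer to the unfolded protein response, lay mostly on the other side of 0. Of 17 genes, all at the minimum, 3 were above 0 and 14 below, against 47.1% of all genes below 0, with a median of -0.11 and 0 past 1.5-fold. Hspa5, the HSP70 of that compartment, had 540 FPKM in GW3965 and 581 FPKM in DMSO (-0.11), and Hsp90b1, its HSP90, had 241 FPKM in GW3965 and 264 FPKM in DMSO (-0.13). The lowest ratios were -0.48 for Sdf2l1 and -0.35 for Manf. The highest was 0.24 for Serpinh1, with 37.4 FPKM in GW3965 and 31.4 FPKM in DMSO. With 1 library per group, the difference between the compartments was not tested. Hspa8 exceeded Hspa5 2.29 times in GW3965 and 1.88 times in DMSO.

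Several genes share long stretches with these. In GENCODE, 15 other genes had at least 50% of their 25-base words in common with 1 or more of the 10, and 9 of these were matched to a row of the table by identifier or symbol. The pseudogenes Gm15459 and Gm12346 reached an FPKM of 1. Gm15459 shares 93.5% of its words with Hspa8 and had 3.30 FPKM in GW3965 and 3.83 FPKM in DMSO. Gm12346 shares 86.6% of its words with Hsp90aa1 and had 1.01 FPKM in GW3965 and 0.866 FPKM in DMSO. The other 6 of the 15 were not analysed here. From the side of the 10 genes, the share of words found in any other gene was 46.8% for Hspa8, 53.4% for Hsp90aa1, 57.0% for Hspd1 and 57.2% for Hspb1, but 0.0676% for Hsph1 and 0.444% for Dnajb1. Dnajb1 and Hsph1 therefore had, of the 10, the values least open to shared reads.

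Within 20 kb of the 10 loci lay 25 other genes of the table, 10 of them at the minimum. Of these 10, 1 passed 1.5-fold, beside 2.35% of all genes at the minimum. It was 9030425E11Rik, 15664 bases from Hspa8, with 5.24 FPKM in GW3965 and 9.34 FPKM in DMSO (-0.73). A link between the 2 loci was not tested. Hspa1l, the testis HSP70 beside Hspa1a, had 0.0715 FPKM in GW3965 and 0.0956 FPKM in DMSO. Slc35b2, 104 bases from Hsp90ab1, stood at -0.12, on the other side of 0 from Hsp90ab1 itself.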

How the data were processed

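Per the labels, TruSeq RNA libraries were prepared from 1 GW3965 and 1 DMSO culture. The tools named in the submitters' processing notes are Cuffdiff, Cufflinks (2.0.2), TopHat2 (2.0.6) and CASAVA, and the builds are NCBIM37 and mm9. How multiply mapped reads and strand were handled is not given in the sources. Per the file headers, the deposited table has 1 FPKM column for each library. The authors' table also holds a p-value and q-value, a log2 fold and, as scores, a test statistic and a signed fold, per the file headers. The test statistic has the sign opposite to the fold.

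Of 36808 genes, 7 marked for too many fragments were left out, and the 73 whose test failed were kept. A pseudocount of 1 was added to each FPKM before the log2 ratio of GW3965 to DMSO was taken. A gene entered when either library had 1 FPKM or more, and 1.5-fold was the size threshold. The standard error was the log2 fold over the test statistic, in size. Table starts count from 0, since 58.5% of 19846 loci with 1 gene then have the GENCODE M21 length, against 1.53% otherwise, so 1 was added.

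Depth came from 4407 low genes. In DMSO 1 read was worth 1.243 times the FPKM it was worth in GW3965, the most frequent ratio, and 53.6% of ratios lay within 0.1% of whole-number steps up to 10, against 1.91% when all were moved by 3%. Genes with 1 transcript set the absolute scale, with 155 bases taken off each length. Fragments of a gene used its shortest basic protein-coding transcript, and the 95% intervals are exact conditional (Clopper-Pearson) intervals.

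The genes and lists were chosen with earlier results of these data known. Named are all 10 genes, of each other list those past 1.5-fold and up to 4 of the largest ratios, preset regulators and genes that share sequence. The neighbours 9030425E11Rik, Hspa1l and Slc35b2 were picked after their values were seen. Alternatives were other pseudocounts, minima, thresholds and scalings, and the authors' tested genes. The rules were run on simulated data with known folds. The noise there was set by hand and not taken from differences between cultures, so that run does not show how the rules perform on these libraries. The software was Python 3.11.15 with scipy 1.17.1, pandas 2.3.3, numpy 2.4.6 and, for plots, matplotlib 3.10.9.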

Additional observations from a re-analysis of the deposited data

How the results depend on the processing

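The 1.1-fold threshold was chosen after the data were seen. At it, 4 heat shock genes were higher and 1 lower, while the counts of 0 past 1.5-fold and of 0 authors' calls held under each other alternative run, 2-fold and q under 0.2 included. The 2-fold count was fixed by construction, as no gene can pass 2-fold without passing 1.5-fold. The median of the heat shock genes, 0.12, ran between 0.08 and 0.13 over 8 alternatives. For single heat shock genes 0 of 68 alternative values changed sign, but most could not. A pseudocount cannot change the sign of a ratio, and other minima or the authors' tested genes leave the ratio itself as it was. Only centring on the median of all genes or scaling to the same sum could change it. Of 63 alternative list medians, 2 changed sign, both for the other HSP70 family, whose median is near 0. Over all genes, counts of 120 higher and 157 lower became 39 and 55 at 2-fold, 2154 and 2156 at 1.1-fold, 194 and 320 under a pseudocount of 0.1, and 56 each under a pseudocount of 5, while raising the minimum FPKM to 5 left 82 lower. In the other chaperone lists, the count of 1 higher was 0 at 2-fold, and the count of 0 lower was 1 (Unc45b) with a pseudocount of 0.1. Pseudocounts act by construction on low genes. No paired analysis was possible because both groups hold 1 library, and leaving out a replicate was not possible for the same reason. Depth limits Hspa1a.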
